A study of Mus musculus with 2 samples.

Results

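The IL-10 and TGF-beta regulatory axis is described here through 8 genes, which are 2 ligands (Il10 and Tgfb1), 4 receptor chains (Il10ra, Il10rb, Tgfbr1 and Tgfbr2) and 2 intracellular mediators (Smad3 and Smad7). They were taken by symbol from the 32285 genes of the deposited tables, and all 8 were found once in each library. RNA was profiled cell by cell in the lamina propria of mouse colon, the layer beneath its epithelium, in 2 libraries of cells labelled CD11b+, an integrin chain (gene Itgam) that myeloid cells carry. The study compared mice carrying floxed Runx3 and Lyz2-Cre, a recombinase driven by a promoter of myeloid cells, with floxed littermates, and pooled male mice 8 weeks old. The libraries are titled Runx3_fl and Runx3, neither title states whether Cre was present, and both are therefore named by title, with no genotype assigned. Each group had 1 library, so no difference between them has a replicate check, no test was run, and every interval covers counting error only.

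IL-10 is a cytokine that restrains inflammatory gene expression in macrophages. It binds a receptor of a specific chain (Il10ra) and a chain shared with related cytokines (Il10rb), which signals through Stat3. TGF-beta 1 is secreted in a latent form, is released by integrins, and binds a complex of Tgfbr2 and Tgfbr1, which phosphorylates Smad3, while Smad7 is an induced inhibitor of that complex. In the gut, both cytokines are known for maintaining tolerance to the microbiota and for supporting regulatory T cells.

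All of these genes were protein coding in the GENCODE M21 annotation on GRCm38. Il10 (ENSMUSG00000016529) spanned 131019845 to 131024974 on the plus strand of chromosome 1, and Tgfb1 (ENSMUSG00000002603) spanned 25687002 to 25705077 on the plus strand of chromosome 7. The receptor genes were Il10ra (chromosome 9, 45253837 to 45269149, minus), Il10rb (chromosome 16, 91406164 to 91425834, plus), Tgfbr1 (chromosome 4, 47353222 to 47414931, plus) and Tgfbr2 (chromosome 9, 116084293 to 116175360, minus). Smad3 lay on chromosome 9 (63646767 to 63757994, minus). Il10ra overlapped Mir7086 on its own strand and Gm20612 on the other, and Il10rb overlapped Gm21970 on its own strand, so reads of these pairs may be shared. The other 6 genes overlapped no annotated gene.

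The ligands were also measured by quantitative PCR in the study, in colon tissue of mice after colitis induced by dextran sulfate sodium. The study names no such treatment for the cells profiled here. The primers are shown because they mark which part of each transcript that assay reads. The capture chemistry used here reads the 3′ end instead.
Il10 forward: acaacatactgctaaccgac
Il10 reverse: ttctcacccagggaattcaa
Tgfb1 forward: gaaggacctgggttggaagt
Tgfb1 reverse: cgggttgtgttggttgtaga
Each primer matched 1 annotated transcript exactly, in its intended gene only. The Il10 primers lay in exon 2 (chromosome 1, 131020983 to 131021002, sense) and exon 3 (131021428 to 131021447, antisense) of Il10-201, and the reverse primer ended 899 bases before the 3′ end of the 1310-base transcript. The Tgfb1 primers lay in exon 6 (chromosome 7, 25704173 to 25704192, sense) and exon 7 (25704794 to 25704813, antisense) of Tgfb1-201, the reverse primer 264 bases before the end of a 2175-base transcript.

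RefSeq promoter windows of 300 bases (build GRCm38.p6) were examined for 4 of the 8 genes, Tgfb1, Tgfbr1, Tgfbr2 and Smad3. Smad7 was left out of this step. The windows of the 2 TGF-beta receptor chains are shown because these chains were distributed differently over the cells, as described below. Capitals mark the SMAD box CAGAC on either strand.
Tgfbr1, chr4:47352972-47353271, plus strand: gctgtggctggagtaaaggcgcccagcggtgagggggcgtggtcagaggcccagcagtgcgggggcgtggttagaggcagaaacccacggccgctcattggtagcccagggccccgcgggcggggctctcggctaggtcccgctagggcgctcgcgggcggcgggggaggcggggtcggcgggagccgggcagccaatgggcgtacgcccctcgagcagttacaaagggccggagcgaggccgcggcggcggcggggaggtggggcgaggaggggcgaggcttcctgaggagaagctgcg
Tgfbr2, chr9:116175314-116175613, minus strand: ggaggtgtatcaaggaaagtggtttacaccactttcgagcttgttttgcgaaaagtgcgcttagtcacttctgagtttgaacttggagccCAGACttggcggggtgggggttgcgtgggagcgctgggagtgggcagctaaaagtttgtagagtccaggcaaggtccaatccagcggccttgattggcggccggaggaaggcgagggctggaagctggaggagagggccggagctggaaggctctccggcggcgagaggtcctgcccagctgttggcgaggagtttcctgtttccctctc
The Tgfbr1 window was 74.7% G or C with 34 CG dinucleotides, and the Tgfbr2 window was 59% with 15, against a median of 52.7% over all 32851 windows. CAGAC occurred in the Tgfbr2 window and in the window of another Tgfbr1 start, and in 49.6% of all windows. The RUNX core TGTGGT, searched on both strands, was in none of the 5 windows of these 4 genes and in 16.8% of all windows. A match or its absence is a statement about letters in these windows only.

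Cells with 200 to 6000 genes and at most 15% mitochondrial UMIs were kept, UMIs being molecular tags that count each captured RNA molecule once. Of 12968 and 8953 cells in the libraries labelled Runx3_fl and Runx3, 11885 and 8167 were left, with a median of 9573 and 5731 UMIs per kept cell. The libraries shared 37 cell barcodes. Cells were assigned to a class when they held a UMI of its gate gene and of no other gate: Ncr1 for NK, Cd3e for T, Cd79a for B, Csf3r for neutrophils, Flt3 for conventional dendritic cells (cDC), and Csf1r with C1qa for macrophages. In the libraries labelled Runx3_fl and Runx3 these held 1294 and 101 NK, 2838 and 389 T, 353 and 1243 B, 1378 and 1448 Csf3r-gated, 910 and 455 cDC and 254 and 276 macrophage-gated cells. An Itgam UMI was present in 44.6% and 38.2% of kept cells, and the lymphocyte gates were large in both libraries although the cells are labelled CD11b+. Levels are given as CPM, the gene's UMIs per 1000000 UMIs of the class, with exact Poisson 95% intervals.

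The libraries and gates departed from their labels in several ways that bear on the results. Runx3 itself was at 157 CPM in macrophage-gated cells of the library labelled Runx3_fl and at 245 CPM in those labelled Runx3, so it did not identify which library carried the deletion. These counts are summed over the whole gene and do not report on a deleted exon. The library labelled Runx3_fl held 2990 kept cells with Xist and no Ddx3y UMI and 5521 with Ddx3y and no Xist, transcripts of female and male cells, although male mice were described. The library labelled Runx3 held 1 and 4352 such cells. All 8 markers of each class were highest in their own gate in both libraries, except that 7 of 8 cDC markers were so in the library labelled Runx3.

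Several gates were mixed. By a count of at least 3 markers, only 53.3% and 39.2% of Csf3r-gated cells were neutrophils, and Csf1r, a monocyte and macrophage receptor, was at 235 and 257 CPM among them. That gate is therefore called by its gene. The count includes the gate genes. By it, 77% and 36.9% of cDC-gated cells and 85% and 53.6% of macrophage-gated cells were of their class. The shares were 42.8% and 71.8% for the Cd79a gate, 88.2% and 65.3% for NK, and 90% and 66.8% for T. Names of the other gates stand for their gate genes and not for pure cell types. The Cd79a gate of the library labelled Runx3_fl was rich in plasma cell RNA, with Jchain at 13876 CPM against 7398 CPM, and only 110 of its 353 cells held the B cell gene Ms4a1, against 743 of 1243. S100a8, a neutrophil gene, was at 1.79 to 4.41 CPM in the other gates of the library labelled Runx3_fl and at 97.7 to 167 CPM in those of the library labelled Runx3. Free RNA was estimated from such misplaced markers at 3.65% to 14.6% of the library level per gate in the first library and 6.05% to 15.3% in the second. Fibroblast markers summed to 1.13 to 16.7 CPM and 3.83 to 116 CPM, and epithelial markers to 5.9 to 102 CPM and 16.3 to 97.9 CPM. The part of these differences in the results below was not tested.

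Among the 6 gates, Il10 was highest in macrophage-gated cells of both libraries. The library labelled Runx3_fl had 266 CPM (248 to 284, from 844 UMIs) and the library labelled Runx3 had 196 CPM (178 to 215, from 434 UMIs). Csf3r-gated cells followed at 182 CPM (174 to 190) and 87.2 CPM (81.8 to 92.8). T cells were at 29.1 CPM (27.5 to 30.8) and 87.1 CPM (77.2 to 97.9), so that in the library labelled Runx3 the intervals of T and Csf3r-gated cells overlapped. B, cDC and NK cells lay lower, at 28.7, 8.01 and 6.08 CPM in the library labelled Runx3_fl and 29.1, 18.9 and 15.3 CPM in the library labelled Runx3. The 6 classes thus stood in the same order in both libraries, with cDC and NK cells in both libraries, and T and B cells in the first, not separated beyond their intervals. This order leaves out many cells. Of 719 and 1083 cells with Csf1r and C1qa, 465 and 807 also passed another gate and were not in the macrophage class. Cells passing several gates held 33.4% and 49.2% of the Il10 UMIs of kept cells, against 9.89% and 7.74% in macrophage-gated cells.

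**Figure D1:**
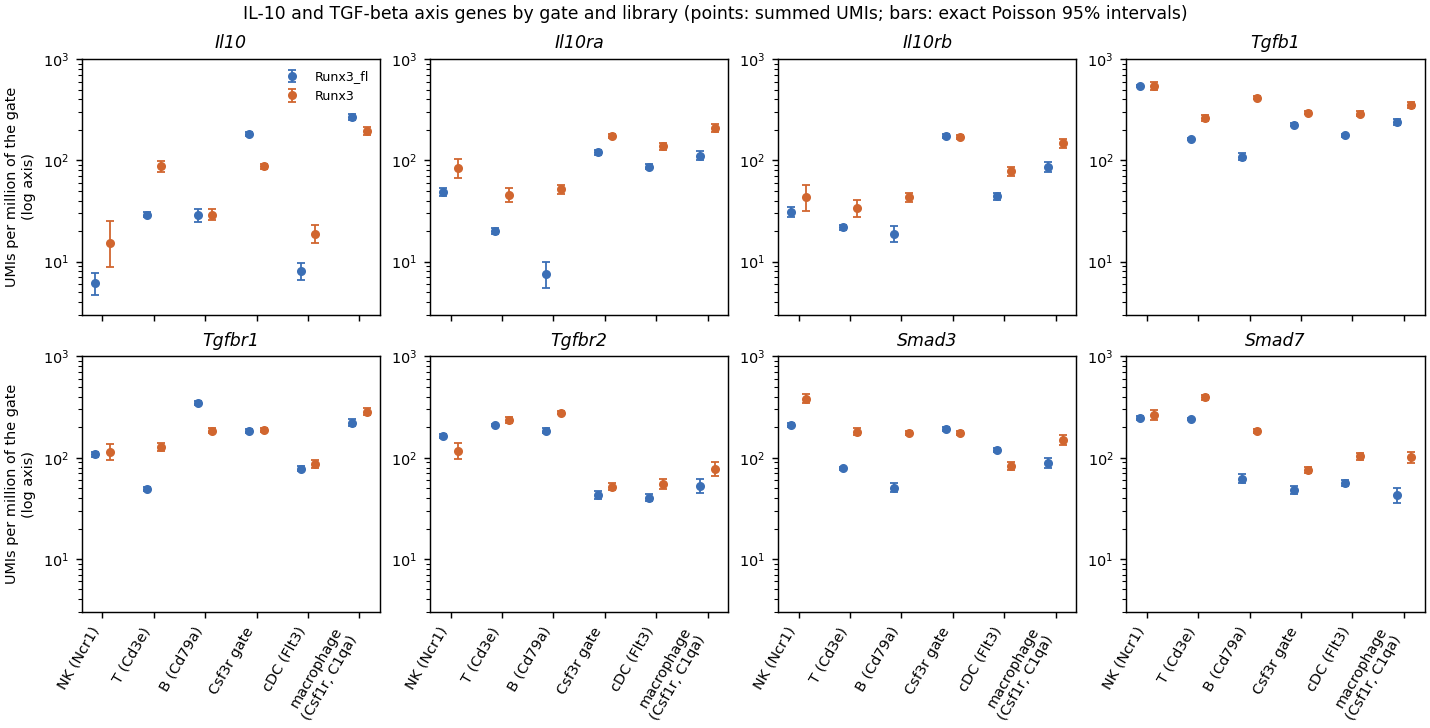
Level of each of the 8 genes (panels) in CPM of the gate, on a log axis, for 6 gates along the x axis. Blue points are the library labelled Runx3_fl, orange points the library labelled Runx3, and bars are exact Poisson 95% intervals. Il10 is highest in the macrophage gate, at 266 and 196 CPM, and Tgfb1 in the NK gate, at 543 and 542 CPM.

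Few cells carried most of the Il10 RNA. In macrophage-gated cells of the library labelled Runx3_fl, 120 of 254 cells held an Il10 UMI, and the 30 cells with at least 10 UMIs held 63.3% of all Il10 UMIs. In the library labelled Runx3, 108 of 276 cells held a UMI, and 9 cells with at least 10 held 38.9%. The highest cell held 37 Il10 UMIs in each library. Those cells with at least 10 were deep, with median totals of 17138.5 and 15870 UMIs. The part of depth in their number was not tested. Cells were then thinned to 2000 UMIs each, which left out 6 and 50 macrophage-gated cells that held fewer. Of the remaining 248 and 226 cells, 21.4% (95% Clopper-Pearson interval 16.4 to 27) and 21.7% (16.5 to 27.6) held an Il10 UMI. The unthinned shares were 47.2% and 39.1%, at median depths of 12785.5 and 6380.5 UMIs per cell. At equal depth the shares of cells with Il10 thus lay within each other's intervals. In NK cells the thinned shares were 0.93% and 1.01%, at median depths of 7868.5 and 9367 UMIs.

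Ratios are log2 of CPM plus 1, with Runx3 divided by Runx3_fl. For Il10 in macrophage-gated cells the ratio was -0.44 (exact 95% counting interval -0.61 to -0.27). Its sign was kept in 10 of 11 alternative ways of counting, but its size was not stable. With each cell given the same weight the ratio was 0.13, after thinning it was -0.10, and with macrophages defined by marker lists it was -1.34. Cells of different animals within 1 library also differed. In the library labelled Runx3_fl, Il10 was at 164 CPM (128 to 208) in 36 macrophage-gated cells with Xist and no Ddx3y and at 265 CPM (242 to 289) in 136 with Ddx3y and no Xist. That spread between sets of mice within a library was as large as the distance between the libraries. Among cells with Ddx3y and no Xist of both libraries, a comparison chosen after seeing the data, the ratio was -0.46.

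Within the macrophage gate the subsets moved in different directions. Cells with Ly6c2, a gene of monocytes and recently arrived macrophages, were taken without Nos2 and are called cells with Ly6c2 below. They were at 320 CPM of Il10 (116 cells) and 167 CPM (215 cells), giving a log2 ratio of -0.93. Cells with Nos2, the inducible nitric oxide synthase, with or without Ly6c2, were at 209 CPM (62 cells) and 365 CPM (8 cells). Cells with neither gene were at 227 CPM (76 cells) and 279 CPM (53 cells). The ratio of the last subset, 0.30, had an interval that included 0 (-0.06 to 0.66). Monocytes, gated by Csf1r and Ly6c2 without C1qa, were at 191 and 93.8 CPM over 935 and 1186 cells, a ratio of -1.02 (-1.13 to -0.92). Cells with Csf3r, but of no other gate, were allowed in this monocyte gate. It held 2271 and 1017 Il10 UMIs, more than the 1404 and 786 of all cells of no gate. The monocyte and Csf3r gates therefore shared cells, and their Il10 ratios are not separate results. The lower Il10 level in the library labelled Runx3 was thus found in macrophage-gated cells with Ly6c2 and no Nos2 and in the monocyte gate. It was also found in Csf3r-gated cells with and without Csf1r, as given below.

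**Figure D2:**
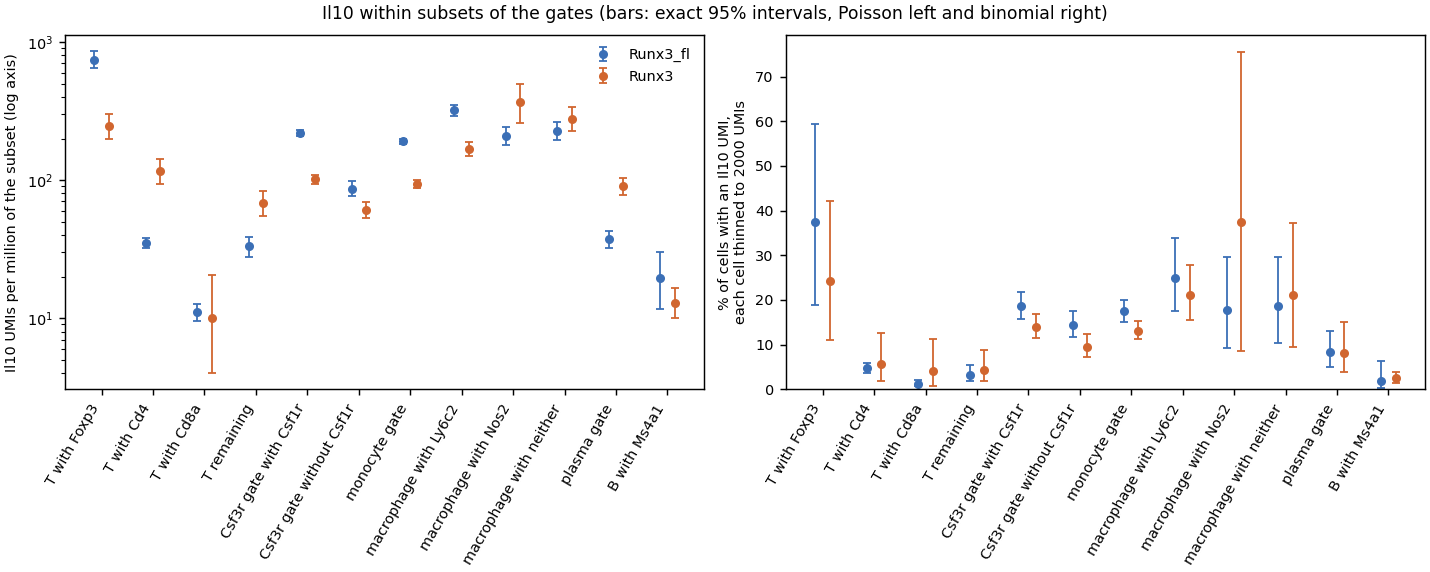
Il10 in 12 subsets of cells, as CPM of the subset on a log axis (left) and as the percent of cells with an Il10 UMI after thinning to 2000 UMIs (right). Blue points are the library labelled Runx3_fl, orange points the library labelled Runx3, and bars are exact 95% intervals, Poisson left and binomial right. T cells with Foxp3 stand at 746 and 245 CPM, above every other T cell subset.

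Csf3r-gated cells had the only member at least 2-fold lower in the library labelled Runx3, Il10, with a log2 ratio of -1.05 (-1.17 to -0.95). Of all 7553 genes with a mean of at least 10 CPM in this gate, 3.03% were at least 2-fold lower and 9.31% at least 2-fold higher. Neutrophil genes of this gate differed widely between the libraries. S100a8 was at 1686 and 20311 CPM, S100a9 at 2256 and 17621 CPM, and the 8 neutrophil markers summed to 9260 and 41874 CPM. The part of this difference in the Il10 ratio was not tested. The gate was divided by Csf1r after its mixture was seen. Cells with a Csf1r UMI were at 218 and 101 CPM of Il10 and cells without it at 86.8 and 60.8 CPM, with ratios of -1.10 and -0.51. The larger difference lay in the Csf1r-bearing cells, which were the deeper ones, at medians of 11175 and 9117 UMIs against 3146 and 3382. The difference between the ratios was not tested.

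In T cells Il10 stood higher in the library labelled Runx3, with a log2 ratio of 1.55 (1.39 to 1.77), whereas in T cells with Foxp3, the transcription factor of regulatory T cells, it stood lower. The Foxp3-bearing cells were at 746 CPM (204 UMIs in 25 cells) and 245 CPM (89 UMIs in 33 cells), a ratio of -1.6 (-1.98 to -1.24). They made up 25 of 2838 T cells in the first library and 33 of 389 in the second. T cells with Cd4 and without Foxp3 or Cd8a were at 35.1 CPM (1247 cells) and 116 CPM (90 cells), while T cells with Cd8a were at 11 and 9.94 CPM. These levels rested on few cells. In the library labelled Runx3, 9 T cells with at least 10 Il10 UMIs held 68.5% of the T cell total, and in that labelled Runx3_fl 30 such cells held 49.8%. Among Foxp3-bearing cells, 10 cells held 93.6% and 3 cells held 57.3%.

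NK cells and cDC were also past 2-fold for Il10, with ratios of 1.21 (0.45 to 2.14) and 1.14 (0.84 to 1.63), in gates where 4.05% and 5.99% of all genes were at least 2-fold higher and 1.12% and 1.46% at least 2-fold lower. The NK values rested on 68 and 16 UMIs, and thinning turned that ratio to -0.087. With the estimated free RNA subtracted, NK cells held 2.74 and 10.1 CPM. The cDC ratio fell under 2-fold with classes from marker lists (0.38), after thinning (0.44) and with free RNA subtracted (0.77). Cells with Jchain and Sdc1, genes of plasma cells, were at 37.2 and 90 CPM of Il10 over 203 and 124 cells. In the Cd79a gate the ratio was 0.02 (-0.27 to 0.30), but it was -1.25 for B cells defined by marker lists. Within the gate it was -0.55 in cells with Ms4a1 and 0.79 in cells without, and 6 of 13 alternatives kept its sign.

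Tgfb1 was highest in NK cells and did not differ there between the libraries beyond the counting interval. Its levels there were 543 CPM (530 to 557) and 542 CPM (498 to 589), and the ratio of -0.0034 had an interval of -0.13 to 0.12. Macrophage-gated cells were at 238 CPM (221 to 255) and 351 CPM (327 to 377), a ratio of 0.56 (0.42 to 0.71), and this ratio ranged from 0.40 to 0.69 over the alternatives. Subsets of macrophages with Ly6c2, with Nos2 and with neither were at 242, 231 and 237 CPM in the library labelled Runx3_fl, and 370, 246 and 296 CPM in the library labelled Runx3. Unlike Il10, Tgfb1 was nearly even over these subsets in the first library.

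T cells were at 164 and 261 CPM of Tgfb1, cDC at 177 and 289 CPM, and Csf3r-gated cells at 225 and 295 CPM, below 2-fold in each case. The Cd79a gate was at 109 and 414 CPM, a ratio of 1.91. Among its cells with Ms4a1 the levels were 336 and 494 CPM, a ratio of 0.56, and in plasma cells they were 43.6 and 118 CPM. Cells of the gate without Ms4a1 were at 68.2 and 292 CPM, a ratio of 2.08. The gate's ratio thus lay between those of its cells with and without Ms4a1, and the 2 libraries differed in how many plasma cells the gate held. Within the library labelled Runx3_fl, macrophage-gated cells with Xist and with Ddx3y were at 249 and 239 CPM of Tgfb1, with overlapping intervals.

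The 2 chains of the IL-10 receptor were distributed alike, toward myeloid cells. Il10ra was highest in Csf3r-gated and macrophage-gated cells of the library labelled Runx3_fl, at 121 CPM (114 to 127) and 112 CPM (100 to 124), which overlapped. In the library labelled Runx3 macrophage-gated cells led at 211 CPM (192 to 231), above Csf3r-gated cells at 175 CPM (167 to 183). Lymphocytes lay lowest, with T and B cells at 20 and 7.49 CPM in the first library and 45.6 and 51.6 CPM in the second.

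Il10rb was highest in the Csf3r gate of both libraries, at 174 CPM (166 to 182) and 172 CPM (164 to 180). Macrophage-gated cells were at 86.3 and 147 CPM and T cells at 21.7 and 33.7 CPM. Csf3r-gated cells without Csf1r reached 305 and 176 CPM. Across the 12 values of 6 gates in 2 libraries, the levels of Il10ra and Il10rb on a log2 scale had a Pearson correlation of 0.88, given as a description since values of a library share its depth and free RNA.

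In all 6 gates the library labelled Runx3 held more Il10ra, with log2 ratios of 0.53 to 2.63. In macrophage-gated cells the ratio was 0.91 (0.72 to 1.12), under 2-fold, and it was 0.75 to 0.94 over the alternatives. In T cells it was 1.15 (0.93 to 1.45). The Cd79a gate gave the largest member ratio of the 6 gates, 2.63 (2.35 to 3.25), from 48 and 437 UMIs. It remained past 2-fold in cells with Ms4a1, at 1.18 (0.57 to 1.93), and was 3.21 in cells without. For the Csf3r gate the ratio of 0.53 turned to -0.19 in cells without Csf1r and to -0.40 in neutrophils defined by marker lists. Il10rb ratios in macrophage-gated, T and cDC cells were 0.76, 0.61 and 0.80, and over Csf3r-gated cells the ratio was -0.02.

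The 2 chains of the TGF-beta receptor were distributed differently. Tgfbr2 was lowest in the 3 myeloid gates, at 40.2 to 52.9 CPM in the library labelled Runx3_fl and 51.9 to 77.6 CPM in the library labelled Runx3. Lymphocyte gates held 164 to 210 CPM and 117 to 279 CPM, so that the lymphocyte and myeloid ranges did not overlap in either library. Across the 12 values Tgfbr2 correlated at -0.71 with Il10ra, at -0.74 with Il10rb and at 0.76 with Smad7.

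Tgfbr1 was high in macrophage-gated cells, at 222 CPM (206 to 239) and 284 CPM (262 to 307), and low in cDC, at 77.8 and 86.5 CPM. In the library labelled Runx3_fl it was highest in the Cd79a gate, at 345 CPM (331 to 360), against 185 CPM (176 to 195) in the library labelled Runx3. Plasma cells were at 345 and 204 CPM, and Cd79a-gated cells with Ms4a1 at 260 and 186 CPM. In the first library the interval of the whole gate lay above that of macrophage-gated cells, whereas that of its cells with Ms4a1 (229 to 294) overlapped it. Plasma cells were at 136 and 78.1 CPM of Tgfbr2. The correlation of Tgfbr1 with Tgfbr2 across the 12 values was -0.05.

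Between libraries, Tgfbr1 was past 2-fold in T cells only, at 49.5 and 127 CPM, with a log2 ratio of 1.35 (1.21 to 1.52). The ratio was 1.62 in T cells with Cd8a, 1.32 in those with Cd4 and 0.77 in those with neither gene nor Foxp3. In T cells with Foxp3 it was 0.06 (-0.71 to 0.85). Tgfbr2 in the same T cells was at 210 and 234 CPM, a ratio of 0.16. In NK cells Tgfbr2 was at 164 and 117 CPM, a ratio of -0.49 (-0.77 to -0.23), the only gate in which it was lower in the library labelled Runx3. No Tgfbr2 ratio in the 6 gates was past 2-fold.

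Smad3 and Smad7 were both highest in NK or T cells. Smad3 led in NK cells of both libraries, at 212 CPM (203 to 220) and 382 CPM (346 to 421), and its ratio was 0.85 (0.70 to 1.01). T cells were at 78.6 and 181 CPM, a ratio of 1.20 (1.08 to 1.34), and macrophage-gated cells at 88.5 and 150 CPM, a ratio of 0.76 (0.53 to 1.00). In cDC Smad3 was lower in the library labelled Runx3, at 119 and 83.1 CPM, a ratio of -0.52 (-0.67 to -0.38), which became 0.12 when cells passing several gates were counted in each.

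The Cd79a-gate ratio of Smad3, 1.77, was not found in its Ms4a1-bearing cells. In cells of the gate without Ms4a1 it was 2.56, from 19.7 and 121 CPM. Plasma cells were at 7.17 and 35.1 CPM, and Cd79a-gated cells with Ms4a1 at 223 and 211 CPM, a ratio of -0.081 (-0.29 to 0.14). Smad7 followed the same course, with a ratio of 1.54 in the whole gate, 0.20 in cells with Ms4a1 and 1.75 in cells without.

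Smad7 (chromosome 18, 75367529 to 75395935, plus strand) was the only member past 2-fold in macrophage-gated cells. The library labelled Runx3_fl had 42.8 CPM (35.9 to 50.7, from 136 UMIs) and the library labelled Runx3 had 101 CPM (87.8 to 115, from 223 UMIs), so the ratio was 1.21 (0.92 to 1.55). Of 7583 genes in this gate, 9.59% were at least 2-fold higher and 3.1% at least 2-fold lower, and 1 of 8 members is close to the first share. The ratio was 1.18 in cells with Ly6c2 and 1.22 in cells with neither Ly6c2 nor Nos2, and it ranged from 0.55 to 1.40 over the alternatives. In absolute level Smad7 was nevertheless higher in T cells, at 243 and 397 CPM, and NK cells, at 248 and 265 CPM, than in macrophage-gated cells.

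Over the 48 combinations of a member and a gate, 12 were at least 2-fold higher and 1 at least 2-fold lower in the library labelled Runx3, and all 48 passed the minimum of 10 CPM. The T gate held 4 of 8 members (Il10, Il10ra, Tgfbr1 and Smad3), against 11.1% of all genes higher and 8.88% lower. The Cd79a gate held 5 of 8 (Il10ra, Il10rb, Tgfb1, Smad3 and Smad7), against 18.4% higher and 15% lower, but only Il10ra among cells with Ms4a1, where 4.41% of genes were higher and 6.42% lower. NK cells, cDC and macrophage-gated cells held 1 each. The median ratio of the 8 members was 0.93 in T cells, 1.35 in B, 0.66 in macrophage-gated, 0.68 in cDC, 0.28 in NK and 0.16 in Csf3r-gated cells. The medians of all genes in the same gates were 0.04, 0.22, 0.16, 0.08, 0.05 and 0.21.

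**Figure D3:**
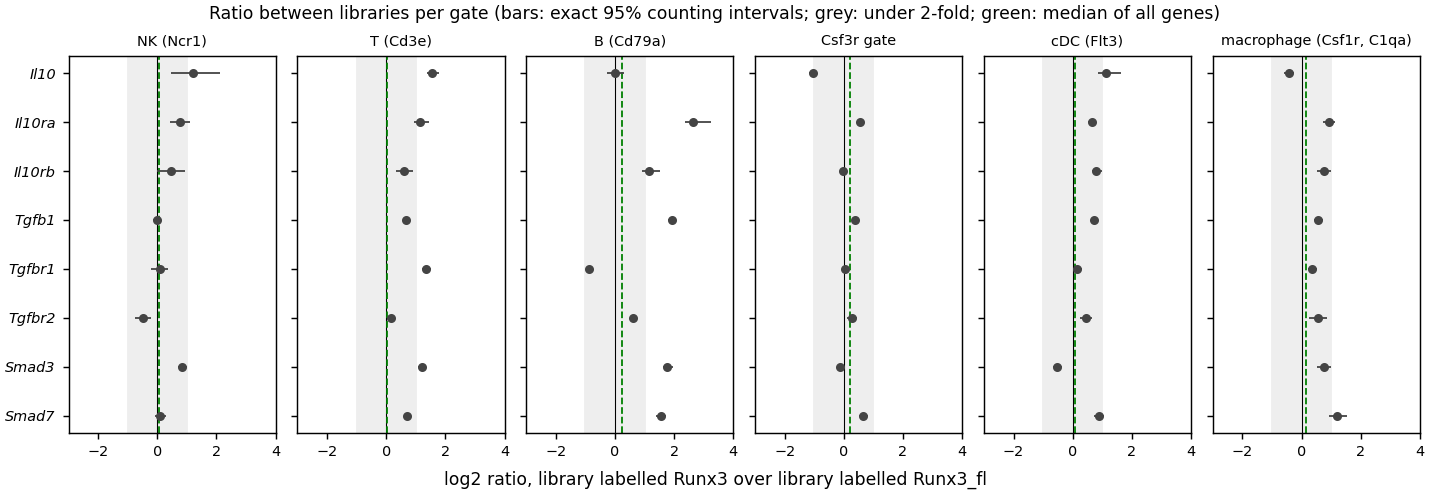
Log2 ratio of CPM plus 1 (library Runx3 divided by library Runx3_fl) for the 8 genes in 6 gates (panels). Bars are exact 95% counting intervals, the grey band covers ratios under 2-fold, and the green dashed line is the median of all genes in that gate. Il10 lies left of 0 in the Csf3r gate (-1.05) and the macrophage gate (-0.44) and right of 0 in the T gate (1.55).

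Further genes of both pathways were described in macrophage-gated cells by the same 2-fold limit, against 9.59% of all genes higher and 3.1% lower in this gate. Of 8 IL-10 signalling genes, all past the minimum level, none was past 2-fold, and Stat3 was at 351 and 417 CPM. Of 14 listed genes that IL-10 induces 13 passed the minimum, and 3 were higher and 0 lower: Hmox1, the haem-degrading enzyme, at 59.8 and 244 CPM, Sbno2, a transcriptional coregulator, at 43.8 and 108 CPM, and Zfp36, an RNA decay factor, at 627 and 1356 CPM. Socs3, the feedback inhibitor of cytokine signalling, was at 154 and 198 CPM. Il1rn, which encodes the interleukin-1 receptor antagonist, was at 1120 and 630 CPM, a ratio of -0.83, under 2-fold in the other direction. Tnfaip3, Etv3 and Nfil3 were lower too, with ratios of -0.72, -0.67 and -0.38. The remaining listed genes past the minimum had ratios above 0. The list median was 0.51 against 0.16 for all genes. Higher levels of listed genes were not particular to this gate. In T cells 7 of 13 were at least 2-fold higher, against 11.1% of all genes, and in the Cd79a gate 9 of 13, against 18.4%. In NK, Csf3r-gated and cDC cells 2 of 12, 2 of 13 and 3 of 13 were, against 4.05%, 9.31% and 5.99%. In the Csf3r gate 1 was at least 2-fold lower, against 3.03%. Zfp36 was at 90.4 and 611 CPM in T cells.

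Among 13 regulators of Il10 transcription past the minimum, 2 were higher and 1 lower, against 9.59% and 3.1% of all genes in the gate. Maf, an activator of Il10, was at 81.3 and 268 CPM, a ratio of 1.71, and Ikzf3 at 7.56 and 46.9 CPM. Maf and Il10 thus stood apart in opposite directions in this gate, although the direction of Il10 depended on the weighting of cells.

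For TGF-beta, 11 of the 13 induced genes found in the files passed the minimum, and 3 were higher, among them Id1, an inhibitor of DNA binding, at 19.5 and 66.7 CPM, and Smad7. The feedback gene Bambi, a decoy receptor, was at 5.04 and 26.6 CPM, the only one of 13 past 2-fold. Among 7 activation genes Itgb5, an integrin chain, was at 42.8 and 106 CPM, and Itgav, its partner, at 474 and 257 CPM, under 2-fold. Acvr1b, a related receptor, was the only one of 6 receptors past 2-fold, at 5.98 and 14.4 CPM. Neither of the 2 ligand and storage genes past the minimum was past 2-fold. Of all genes in the gate 9.59% were higher and 3.1% lower, and nothing is read from a count of 1 in such short lists.

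The 3 genes most like each member were chosen by the highest Pearson correlation over the same 12 values, among 5623 genes with at least 50 CPM in some gate. For Il10 these were Gde1 (0.94), Acp5 (0.92) and Capg (0.91), and for Tgfb1 Zbtb7a (0.95), Zswim8 (0.94) and AC149090.1 (0.94). For Il10ra they were Ist1, Vav1 and Tcn2, for Il10rb Gm31718, Gm15832 and Cd300lf, for Tgfbr1 Laptm4a, Ell2 and Abca1, and for Tgfbr2 St6galnac3, Dcaf1 and Grap. Those of Smad3 included Zc3h12a and Birc3, and those of Smad7 were Pdcd4, Ggps1 and Med26. Among the members themselves Tgfb1 and Smad3 correlated at 0.81. With so many genes and 12 values that share libraries, these are descriptions of likeness only.

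**Figure D4:**
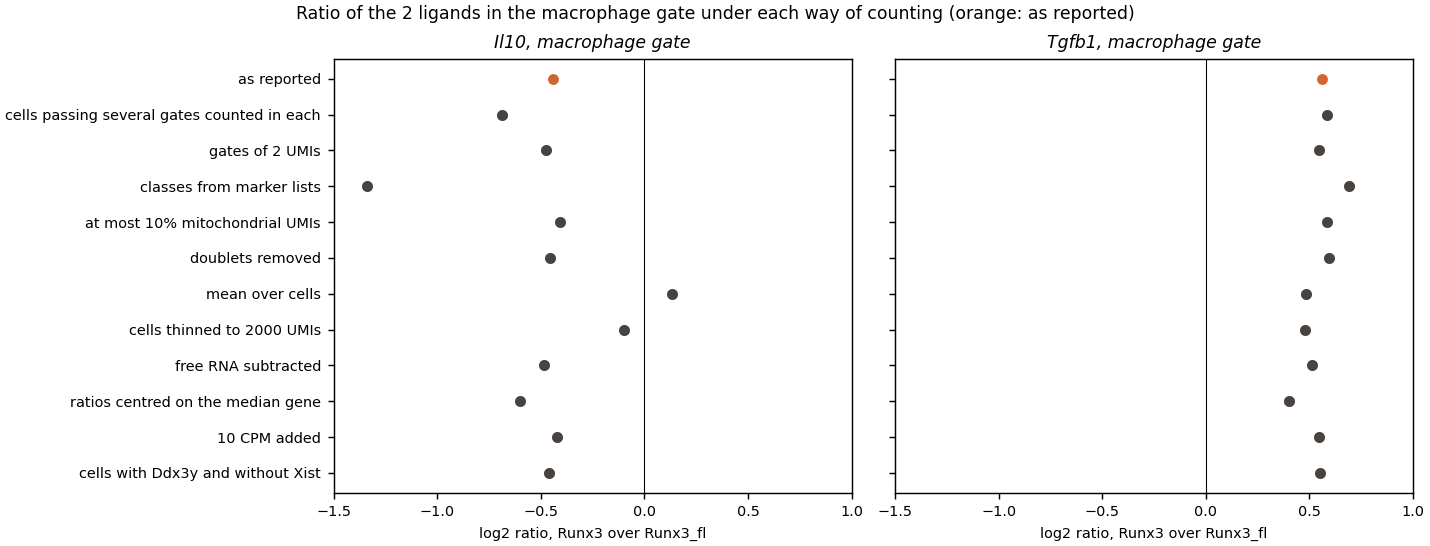
Log2 ratio of Il10 (left) and Tgfb1 (right) in macrophages (library Runx3 divided by library Runx3_fl) under each way of counting named on the y axis. The orange point is the value as reported. Il10 spans -1.34 to 0.13 and crosses 0, whereas Tgfb1 spans 0.40 to 0.69.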

How the data were processed

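The authors made the libraries with 10x Genomics 3′ chemistry and deposited filtered matrices of whole-number UMI counts per gene and cell, not normalized. The submitters' processing notes name Cell Ranger 7.1.0, mm10 and Seurat 4. Whether intronic reads were counted is not given in the sources used here. Counts were summed per gate and library and scaled to CPM. The log2 ratio added 1 CPM, genes needed a mean of 10 CPM over both libraries, and 2-fold was the limit. On simulated sums, genes lowered from just above that minimum fell under it and were not counted as lower, so counts of lower genes near the minimum are incomplete. Cells passing several gates (1168 and 1599) and no gate (3690 and 2656) were left out. Doublets were limited by the 6000-gene maximum, and 1 alternative removed 1130 and 534 cells by Scrublet score. Of 32285 gene IDs, 32235 were in GENCODE M21. Each class is compared over 1 library per group, so depth, free RNA and animals cannot be told apart from the labels.

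Named pathway genes were those past 2-fold in macrophages, up to 3 per direction and list. Others were named for their role or direction after their values were seen (Stat3, Socs3, Itgav, Il1rn, Tnfaip3, Etv3, Nfil3). Likeness was the correlation of log2(CPM + 1). Lists of mast cell, innate lymphoid, endothelial and erythroid markers were also checked. Their summed levels per gate were 0 to 6.79, 21.4 to 1095, 84.5 to 326 and 0.196 to 10.4 CPM. The members and lists were chosen with earlier results of these data known. The alternatives numbered 11 planned and 5 chosen after seeing the data. Software was scanpy 1.11.5, scipy 1.17.1, matplotlib 3.10.9, numpy 2.4.6 and pandas 2.3.3 under Python 3.11.15. A few genes that fall under the rule for named genes are counted in the totals but not reported here by name.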

Additional observations from a re-analysis of the deposited data

Results flagged for a closer look

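For 4 members the ratio between the libraries pointed in opposite directions in different gates, with counting intervals on either side of 0. None of these differences between gates was tested, since each gate had 1 library per group. For Il10 the log2 ratio was 1.55 in T cells and -1.05 in Csf3r-gated cells, with 3 gates above 0 and 2 below. For Tgfbr1 it was 1.35 in T cells and -0.90 in the Cd79a gate, with 2 gates above and 1 below. For Tgfbr2 it was 0.60 in the Cd79a gate and -0.49 in NK cells, with 5 above and 1 below. For Smad3 it was 1.77 in the Cd79a gate and -0.52 in cDC, with 4 above and 2 below. The Cd79a values of Tgfbr2 and Smad3 became -0.11 and -0.081 in cells with Ms4a1, and 0.25 and 2.56 in cells without.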

How the results depend on the processing

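No paired analysis was possible because each group had 1 library. Of 63 alternative values for the main results, 48 stayed within 1.5 times the count or within the counting interval of the value as reported, and 15 moved. The 12 combinations higher in the library labelled Runx3 became 7 with classes from marker lists and 7 with cells thinned to 2000 UMIs. The 1 lower combination became 0 when cells passing several gates were counted in each, as a mean over cells, after thinning, with 10 CPM added, and in Csf3r-gated cells without Csf1r. It became 4 with marker lists, 2 with free RNA subtracted and 2 with ratios centred on the median gene. The Il10 ratio in macrophages, -0.44 as reported, became -0.69 with cells passing several gates counted in each, -1.34 with marker lists, 0.13 as a mean over cells and -0.10 after thinning. The Tgfb1 ratio of 0.56 became 0.40 when centred on the median gene. Among ratios past 2-fold as reported, the sign turned only for Il10 in NK cells and Smad3 in the Cd79a gate. The first turned after thinning (1.21 to -0.087) and the second in cells with Ms4a1 (1.77 to -0.081). Signs of several ratios under 2-fold turned as well. Among them were Il10ra in the Csf3r gate with marker lists (0.53 to -0.40) and Il10rb in NK cells after thinning (0.47 to -0.35). The causes were not tested. Divisions by Csf1r, Ms4a1 and Ddx3y were chosen after seeing the data.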
